A study of Mus musculus with 2 samples.

Results

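Small intestinal CD81- fibroblasts (CD81- FBs) are the 2823 cells that carry the authors' label "CD81- FBs" in the small intestine library, of 9359 annotated cells in that library and 15377 in both libraries of the study. They made up 30.2% of the small intestinal cells (exact 95% binomial interval 29.2 to 31.1) and 48.3% of its 5845 fibroblasts (47.0 to 49.6), the largest of the annotated types there. The study profiled gut stroma, the connective tissue, vessel and muscle cells beneath the epithelium, by droplet single-cell RNA sequencing in the healthy, untreated mouse, with 1 library from the small intestine and 1 from the colon. The epithelium was stripped with EDTA and DTT, collagenase and dispase freed the remaining cells (the colon was digested for longer), and live cells without CD45 and without CD326 (EpCAM) were sorted. That sort leaves out immune and epithelial cells, and it and the digestion set the shares given here. The labels used here name no strain, sex, age or number of animals, no genetic change and no treatment, and whether a library pools animals is not given there. Cells of 1 library are not replicates: no comparison below has a replicate check or a p-value, and all intervals cover counting error only.

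The other annotated types of the small intestine were 1913 trophocytes (CD81+ fibroblasts), 1109 SEMFs (fibroblasts with high PDGFRa, usually read as subepithelial myofibroblasts), 468 cells labelled SMCs (smooth muscle cells), 2498 LECs (lymphatic endothelial cells), 524 BECs (blood endothelial cells) and 24 proliferating cells. Gut fibroblasts lay down the collagen and glycoprotein matrix of the mucosa and release ligands and antagonists of the Wnt, BMP and fibroblast growth factor pathways, which the epithelium above them reads. Fibroblasts next to the crypt base, rich in Wnt potentiators and BMP antagonists, are set apart in this field from fibroblasts under the villus epithelium, rich in BMP ligands. Cd81, the surface tetraspanin that names the labels, marks the crypt-base kind.

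The CD81- FBs held 20156679 unique molecular identifiers (UMIs, each marking 1 captured RNA molecule), with a median of 6977 in a cell and extremes of 820 and 16561, and the median cell had 2855 genes. Median depth was 7807 UMIs in trophocytes, 5510 in SEMFs, 5644.5 in the SMC label, 4117.5 in LECs and 3651.5 in BECs. In the median CD81- FB 3.01% of the UMIs were mitochondrial. Cell barcodes shared by the 2 libraries numbered 21, of which 10 belonged to small intestinal CD81- FBs. Doublets, droplets with 2 cells, were not removed: a caller marked 22 of the CD81- FBs, and 231 of them (8.18%) were in the top 6% of the library by doublet score. Of the small intestinal CD81- FBs, 2275 had Y-linked UMIs, and Xist was not analysed there. Of the 3631 colon CD81- FBs, 1151 had Y-linked UMIs alone, 963 had Xist UMIs alone and 748 had both.

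Levels are given as CPM, the UMIs of a gene in every 1000000 UMIs of a type. They are compared between types for 1 gene, never between genes. A log2 ratio of 1 is a 2-fold difference, and a gene was called higher or lower beyond 2-fold with at least 100 UMIs over both sides. The authors' labels are taken to come from the RNA of these same cells, so the differences between types describe the labels and are no independent finding.

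All 5 marker genes set for the CD81- FBs were abundant in them, but only Hmcn1 and Edil3 were at their highest there. Adamdec1, a secreted metalloprotease-like protein of gut stroma (mm10 chr14:68563380-68582095, minus strand), stood at 8191 CPM (95% Poisson interval 8151 to 8230). The other levels of Adamdec1 were 9211 CPM in the SMC label, 2302 in SEMFs, 149 in trophocytes, 108 in LECs and 86.2 in BECs. Thus the SMC label was above the CD81- FBs, and both were far above the rest. Hpse2, heparanase 2, which binds heparan sulphate and restrains heparanase (chr19:42786539-43388355, minus strand), reached 3554 CPM. In SEMFs Hpse2 was at 3693 CPM and in the SMC label at 3278, against 316 in trophocytes, 53.5 in LECs and 28.3 in BECs. It therefore separated CD81- FBs from trophocytes and endothelium but not from SEMFs or the SMC label.

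Hmcn1, the giant matrix protein hemicentin 1 (chr1:150562524-150993435, minus strand), was at 909 CPM in CD81- FBs and 883 in the SMC label. LECs followed with 283 CPM, SEMFs with 171, trophocytes with 65.5 and BECs with 61.1. Edil3, an integrin-binding matrix protein (chr13:88821472-89323223, plus strand), was the only one of the 5 whose level over all cells set the CD81- FBs apart from every other type. Its 268 CPM compared with 99.9 in trophocytes, 53.8 in the SMC label, 5.35 in LECs, 4.91 in SEMFs and 3.19 in BECs. Fbln1, the matrix glycoprotein fibulin 1 (chr15:85205949-85286535, plus strand), was at 1856 CPM in CD81- FBs and higher, 3184 CPM, in trophocytes. The SMC label had 646 CPM of Fbln1, SEMFs 67.0, LECs 45.7 and BECs 31.0. Cd81 itself was at 8.14 CPM, against 560 in trophocytes, 603 in BECs, 242 in LECs, 14.3 in the SMC label and 4.45 in SEMFs. The cells were poor in Cd81, as their label says, and SEMFs and the SMC label were likewise poor in Cd81.

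Of the given markers, the promoters of Hpse2 and Hmcn1 are shown because these genes differed most between the tissues of all 5. That of Fbln1 is not shown. RefSeq (GRCm38.p6, mm10) gave a promoter for 3 of the 5 given markers and for 64 of the 91 named genes; Adamdec1 and Edil3 had no entry. Capitals mark matches to the motifs searched on both strands in the 250 bases before the start: AP-1 (TGAGTCA), the TATA box (TATAAA), forkhead (TGTTTAC), heat shock (GAANNTTC) and interferon-stimulated elements. The last was searched as a pair of TTTC blocks with any 2 bases between them. The AP-1 letters occur in 4.46% of all 32851 promoters of that length, the TATA letters in 12.4%, the forkhead letters in 3.17%, the heat shock letters in 6.69% and the interferon letters in 2.98%. A match describes letters in this window and shows neither a bound site nor a cause. The Hpse2 promoter (chr19:43388356-43388605, minus strand) held none of the 5, and that of Hmcn1 (chr1:150993436-150993685, minus strand) held the forkhead letters, 226 to 220 bases before the start.
Hpse2: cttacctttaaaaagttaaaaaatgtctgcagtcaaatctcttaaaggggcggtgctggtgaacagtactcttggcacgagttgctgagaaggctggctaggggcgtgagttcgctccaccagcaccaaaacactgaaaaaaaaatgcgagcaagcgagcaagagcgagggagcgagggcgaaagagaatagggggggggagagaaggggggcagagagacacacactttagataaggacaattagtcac
Hmcn1: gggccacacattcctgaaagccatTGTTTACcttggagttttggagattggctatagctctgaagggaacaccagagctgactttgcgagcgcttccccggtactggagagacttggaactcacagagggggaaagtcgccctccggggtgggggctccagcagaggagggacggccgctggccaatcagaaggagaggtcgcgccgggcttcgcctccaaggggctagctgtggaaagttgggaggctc

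Per cell, Adamdec1 and Hpse2 were seen in nearly every member, Fbln1 and Hmcn1 in most and Edil3 in a minority. After thinning each cell to 3000 UMIs, which left out 127 shallower CD81- FBs, the 5 markers summed to a median of 44 UMIs (5th to 95th percentile 17 to 74) in CD81- FBs. The medians were 42 in the SMC label (9 to 74.65), 16 in SEMFs, 11 in trophocytes and 1 in LECs. Adamdec1 was seen in 98.9% of the thinned CD81- FBs (99.4% unthinned) and in 7.76% of thinned LECs (10.8% unthinned), a type that should lack it. Hpse2 was seen in 96.0% of thinned CD81- FBs (97.6% unthinned), Fbln1 in 87.8% (93.9%) and Hmcn1 in 77.6% (88.1%). Edil3 was seen in 33.1% of thinned CD81- FBs (45.0% unthinned) and in 19.4% of thinned trophocytes (30.7%), so it did not separate single cells. Cd81 was seen in 1.59% of thinned CD81- FBs (2.87%) against 74.0% (88.7%) of trophocytes.

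The SMC label lay nearest to the CD81- FBs in the given markers and in overall levels, and apart from them in smooth muscle genes. Over the 11052 genes that reached 10 CPM somewhere among the 6 types, Spearman's rho with the CD81- FBs was 0.942 for the SMC label, 0.931 for trophocytes, 0.875 for SEMFs, 0.661 for LECs and 0.608 for BECs. These values describe 1 library whose types share preparation and free RNA. The 7 smooth muscle markers summed to 15074 CPM in the SMC label, 4898 in SEMFs, 664 in CD81- FBs and 51.8 in trophocytes, and no marker of the list was at 0 in CD81- FBs. Per cell at 3000 UMIs their median was 0 in CD81- FBs (95th percentile 9) and 39 in the SMC label (5th percentile 3), so the classes overlap at the edge. Of 2696 CD81- FBs, 498 (18.5%) had at least the 3 smooth muscle UMIs that mark the 5th percentile of the SMC label. Of 428 SMC-label cells, 392 (91.6%) had at least the 17 given-marker UMIs that mark the 5th percentile of the CD81- FBs.

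**Figure D1:**
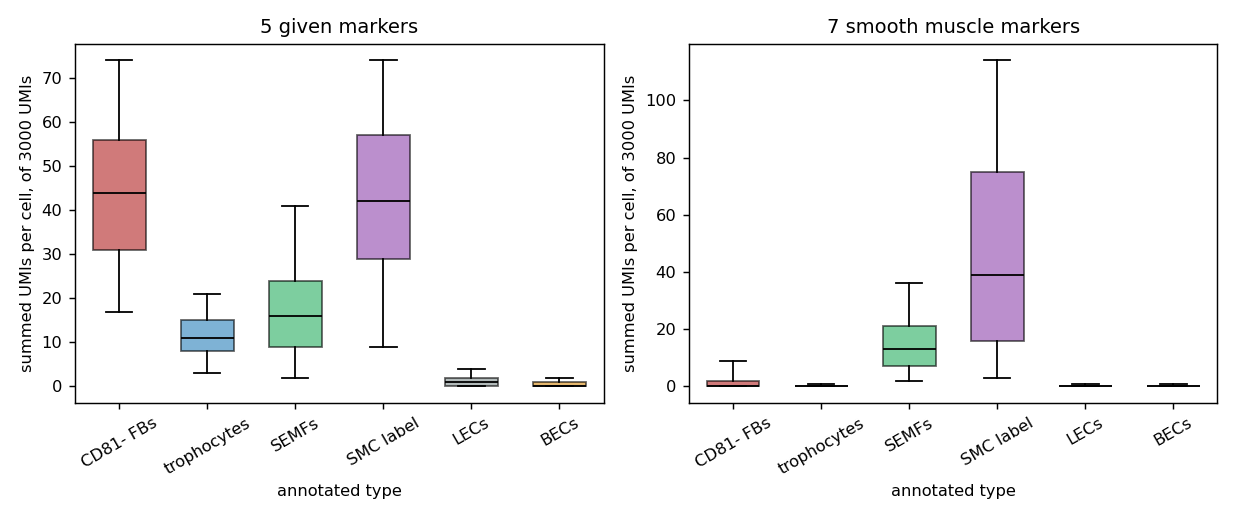
Summed UMIs per cell, after thinning to 3000 UMIs, of the 5 given markers (left) and of 7 smooth muscle markers (right) in the 6 small intestinal types; boxes span the quartiles with the median line, and whiskers reach the 5th and 95th percentiles. The given markers have nearly the same median in CD81- FBs (44) and the SMC label (42), while the smooth muscle markers have a median of 0 and 39.

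Markers of epithelial, immune, glial, blood endothelial and proliferating cells were low. The 5 listed epithelial markers summed to 2.13 CPM, the 7 immune markers to 20.8, the 4 glial markers to 3.03, the 7 BEC markers to 20.3 and the 4 proliferation markers to 4.17. At 0 were Gfap of the glial list, Cd3e of the immune list, Kit of the list for interstitial cells of Cajal and Wt1, the only listed mesothelial marker. The 6 LEC markers summed to 298 CPM in CD81- FBs against 17706 in LECs, and were between 276 and 394 CPM in the other fibroblasts and the SMC label. Pdpn was the LEC marker seen in the most thinned CD81- FBs, in 48.7%, and Ccl21a came next with 4.60%. The 7 pericyte markers summed to 826 CPM, most of it Rgs5 at 778 CPM, and 5 of the 7 were at or under 5 CPM. The 9 trophocyte markers were not low, at 3325 CPM together (8175 in trophocytes, 1318 in SEMFs and 1189 in the SMC label). The 9 SEMF markers summed to 665 CPM (8697 in SEMFs).

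Against all other small intestinal cells together, 511 of 12955 genes (3.94%) were higher and 1435 (11.1%) lower beyond 2-fold, with a median log2 ratio of 0.01 over all genes tested. The 15 leading genes were of mixed function, and by list proteases and inhibitors had 6 of 26 higher and 5 lower and growth factors and receptors 9 of 46 higher and 6 lower. Mmp10, the matrix protease stromelysin 2 (chr9:7502352-7510240, plus strand), was at 261 CPM. It stood at 55.7 CPM in SEMFs, 26.0 in the SMC label, 3.86 in trophocytes, 2.32 in LECs and 0.912 in BECs. The log2 ratio over all other cells pooled was 4.23 (95% interval 4.10 to 4.37), and 4.90 without the top 6% by doublet score. Mmp10 was seen in 16.5% of thinned CD81- FBs (19.2% unthinned) against 0.360% of thinned LECs (0.480%), so a minority of the cells carried it.

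The Mmp10 promoter (chr9:7502092-7502341, plus strand) is shown because this gene ranked first against all other cells and led sub-cluster 5, described below. It held the AP-1 letters 63 to 57 bases before the start and the TATA letters at 29 to 24. Forkhead letters on the other strand lay at 199 to 193 and heat shock letters at 104 to 97.
Mmp10: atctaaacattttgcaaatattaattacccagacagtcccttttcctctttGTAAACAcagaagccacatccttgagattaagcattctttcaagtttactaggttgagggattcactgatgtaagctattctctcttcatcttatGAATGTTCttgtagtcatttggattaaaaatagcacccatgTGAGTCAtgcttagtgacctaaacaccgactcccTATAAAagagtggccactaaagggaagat

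Fgf10, a fibroblast growth factor that acts on epithelium through Fgfr2, was at 110 CPM in CD81- FBs, 53.1 in the SMC label and 4.60 or less in the other 4 types (log2 ratio over all others 4.31, 4.10 to 4.52). Frzb, a secreted Wnt antagonist, was at 44.9 CPM with 10.7 in the SMC label and 3.12 or less elsewhere (4.28, 3.96 to 4.61). In BECs Frzb had no UMI. Lama1, the laminin alpha 1 chain of basement membranes, was at 112 CPM, with 46.7 in the SMC label and 36.6 in SEMFs (3.39, 3.24 to 3.55). Col6a5, a collagen VI chain, was at 139 CPM against 57.7 in the SMC label and 53.8 in SEMFs (3.14). Against the highest of the other types, the 10 leading genes were Mmp10, Eya1, Vcan, Frzb, Rad51b, Edil3, Enox1, Prr16, Col6a5 and Lama1. Among them Vcan, the hyaluronan-binding proteoglycan versican, was at 416 CPM against 139 in trophocytes, the next type. Eya1, a transcriptional coactivator, was at 45.8 CPM against 7.84 in the SMC label. Rad51b, a DNA recombination gene with a span of 517.4 kb, was at 1029 CPM against 384 in the SMC label.

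Other leading genes against all other cells were shared with the SMC label, so their ratios shrank when every other type had equal weight (Fgf10 to 3.17, Adamdec1 from 2.79 to 1.79 and Vwc2 from 2.70 to 1.56). Ereg, the EGF receptor ligand epiregulin, was at 429 CPM in CD81- FBs and 365 in the SMC label, with 196 in SEMFs and 36.3 in trophocytes. Aldh1a3, which makes retinoic acid, was at 263 and 233 CPM in the same pair. Ncam1, a neural cell adhesion molecule, was at 993 CPM in CD81- FBs and higher, 1239 CPM, in the SMC label. Sntg1 (574 and 849 CPM) and Vwc2 (106 and 167 CPM) were likewise higher in the SMC label. The 8 lowest genes were mostly endothelial: Lyve1, a hyaluronan receptor of lymphatic vessels, was at 3.27 CPM against 898 in all others (log2 ratio -8.10), and Ccl21a, a lymphatic chemokine, at 17.5 against 2381 (-7.09). Reln (-8.67), Mmrn1 (-7.65), Lcn2 (-7.42), Aqp1 (-7.26) and Fabp4 (-6.85) were lowest with them, and Sox6 at 9.82 CPM was low against 3519 in SEMFs.

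**Figure D2:**
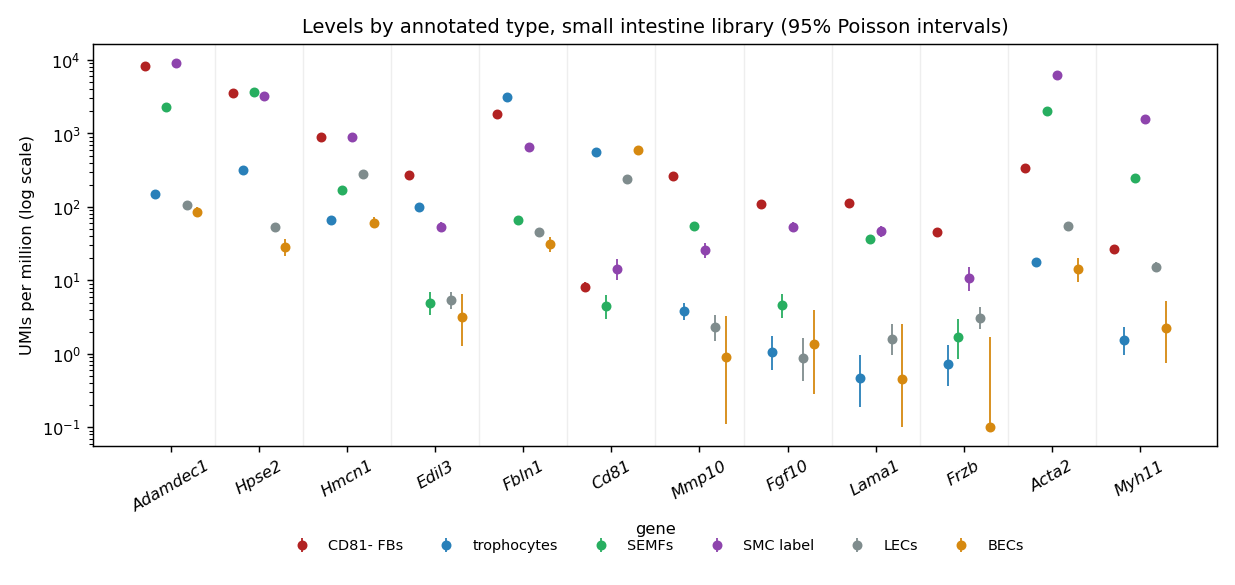
Levels of 12 genes in the 6 annotated small intestinal types, in CPM on a log axis; points are values over all cells of a type and bars are 95% Poisson intervals, with no replicate behind them. Mmp10, Fgf10, Lama1 and Frzb are highest in CD81- FBs, Acta2 and Myh11 in the SMC label, and Cd81 is near the bottom in CD81- FBs (8.14 CPM); Frzb in BECs, a count of 0, is drawn at 0.1.

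CD81- FBs had higher contractile genes than trophocytes and lower immediate early genes, and BMP genes went both ways (5 of 22 higher beyond 2-fold and 6 lower). Of 11573 genes, 790 (6.83%) were higher and 507 (4.38%) lower beyond 2-fold, with a median log2 ratio of 0.22. Relative to that median the split turned, with 585 higher and 638 lower. Adgrl3, an adhesion receptor of the latrophilin family, led with 891 CPM against 6.65 (log2 ratio 7.07, 6.78 to 7.36). Bmp5, a BMP ligand, was at 188 CPM against 3.86 (5.61), and Tnc, the matrix glycoprotein tenascin C, at 643 against 29.7 (4.44). Pde1c (6.01), Fhl2 (5.86) and Dach1 (4.57) were in the same set, with Mmp10 (6.08) and Adamdec1 (5.78). Without the cells of highest doublet score Mmp10 stood at 8.33, Adgrl3 at 7.77, Pde1c at 6.96 and Cd81 at -6.82, all farther from 0. On the low side, beside Cd81 (-6.11), stood Ackr4, a receptor that scavenges chemokines, at 37.1 CPM against 617 (-4.06). Ogn, the proteoglycan osteoglycin, was at 56.8 against 1008 CPM (-4.15), and Piezo2, a mechanically gated channel, at 50.2 against 852 (-4.09). Brinp3 (-5.86), Cilp (-3.97), Prss23 (-3.69) and Adamtsl1 (-3.55) completed the 8 lowest.

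By gene list, against trophocytes, 13 of 14 contractile genes tested were higher beyond 2-fold and none lower (median log2 ratio 1.80), with Acta2, smooth muscle actin, at 341 CPM against 17.6. A minority of the cells carried Acta2: it was seen in 31.2% of thinned CD81- FBs (42.8% unthinned). The median cell had 0 UMIs of the 7 smooth muscle markers while the highest had 99. The share of cells differed between contractile genes: Tpm1 was seen in 66.2% and Cald1 in 62.7% of thinned CD81- FBs, Flna in 37.1% and Mylk in 33.6%. None of 22 immediate early genes was higher and 15 were lower (median -1.65). Fos, an early response transcription factor, was at 1230 CPM against 4334, and Egr1 at 1207 against 3467. Heat shock genes ran with them, with 0 of 11 higher and 5 lower (median -0.92), among them Dnajb1 at 217 CPM against 1001. Such genes respond to handling of cells, and the part of digestion and sorting in this difference was not tested. Of the Wnt list, 2 of 16 were higher and 6 lower (median -0.41). This median was 0.033 with a filter of 500 UMIs, so its sign depends on the filter. Rspo3, a Wnt potentiator, was at 63.8 CPM against 138 and Rspo2 at 32.5 against 140. Grem1, the BMP antagonist of crypt-base stroma, was at 168 CPM against 1298. Of the small leucine-rich proteoglycans, 0 of 10 were higher and 5 lower (median -1.10), with Dcn, decorin, at 13146 CPM against 25673. That median was -0.042 with a filter of 500 UMIs. In the elastic fibre and matrix glycoprotein list, 12 of 31 were higher and 3 lower (median 0.28), and in the complement list 1 of 16 was higher and 4 lower (median -0.32). Of the Hox genes, 5 of 17 were higher and 0 lower (median 0.70).

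Against SEMFs, CD81- FBs were richer in adhesion and protease genes and poorer in contractile genes, while ion channel and innervation genes went both ways (6 of 17 higher beyond 2-fold and 7 lower). Of 11320 genes, 966 (8.53%) were higher and 790 (6.98%) lower, with a median log2 ratio of -0.18. The 8 leading genes were Edil3 (5.77), Nlgn1 (5.19), Mfap5 (5.10), Cd55 (4.83), Fbln1 (4.79), C3 (4.70), Adamts19 (4.68) and Sfrp1 (4.43). Sfrp1, a secreted Wnt antagonist, was at 1482 CPM against 68.8, and C3, the central complement protein, at 953 against 36.6. SEMFs held between 32 UMIs (Edil3) and 449 UMIs (Sfrp1) of these genes. Without the top 6% by doublet score the ratios were larger, between 6.13 for C3 and 9.59 for Nlgn1. The 8 lowest were Kcnq5 (-8.93), Sox6 (-8.48), Abcc9 (-8.28), Kcnj8 (-7.90), Alcam (-7.22), Col4a5 (-6.53), Tmem158 (-6.22) and Ednrb (-5.82). Kcnj8 and Abcc9, which form a potassium channel gated by ATP, were at 1.64 and 1.89 CPM against 392 and 585. Pdgfra, the receptor that gives SEMFs their name, was at 341 CPM against 2778 and was at 376 in trophocytes.

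Of the adhesion, guidance and neural-type surface genes, 21 of 35 were higher than in SEMFs and 3 lower (median 2.00), and of proteases and inhibitors 14 of 25 were higher and 4 lower (median 1.76). Complement genes had 7 of 15 higher and 2 lower (median 0.53). Hedgehog response and stromal transcription factor genes had 13 of 31 higher and 3 lower (median 0.36), for example Zeb2 at 1629 CPM against 182. Contractile genes had 2 of 14 higher and 8 lower (median -1.31). The direction of the early response genes was opposite to that against trophocytes, with 10 of 21 higher and 0 lower (median 0.97), and 5 of 11 heat shock genes were higher (median 0.44). In the Wnt list 7 of 14 were higher and 3 lower (median 0.73), but this median was -0.077 without the cells of highest doublet score. Wnt5a, a Wnt ligand of villus-tip stroma, was at 23.5 CPM against 209, and Wnt4 at 34.1 against 113. BMP ligands were shared unevenly: Bmp4 was at 441 CPM against 525 in SEMFs and Bmp2 at 167 against 144. Bmp5 at 188 was below the 1539 CPM of SEMFs and Bmp7 at 5.90 below their 307 CPM.

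From the SMC label, which shared the given markers, the CD81- FBs differed in contractile genes on the low side and in complement and protease genes on the high side. Of 10939 genes, 491 (4.49%) were higher and 393 (3.59%) lower beyond 2-fold (median log2 ratio 0.02). All 15 contractile genes tested were lower (median -3.81), a list that holds the defining genes of the label. Acta2 was at 341 CPM against 6336 (-4.21), Myh11, smooth muscle myosin, at 26.7 against 1554 (-5.86) and Cnn1, calponin, at 0.992 against 397 (-8.64). Npnt (-6.57), Actg2 (-6.09), Lmod1 (-5.39), Tagln (-4.47) and Myl9 (-3.94) were the other 5 of the 8 lowest. On the high side, beside Mmp10 (3.33, or 4.07 without the cells of highest doublet score), were Ces1d, a carboxylesterase, at 248 CPM against 26.4 (3.23), and Hpgd, which degrades prostaglandins, at 105 against 13.2 (2.99). The complement genes C7 (2.91) and C3 (2.36), with Adamtsl3 (91.5 CPM against 11.4), Plcb1 (2.58) and Mgp (2.44), made up the rest. Of the complement list 9 of 15 were higher and 0 lower (median 1.24), of proteases and inhibitors 10 of 25 and 0 (median 0.83), and of fibrillar collagens 2 of 9 and 0 (median 0.95). Hhip, an antagonist of Hedgehog ligands, was at 77.4 CPM against 1088 in the SMC label.

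**Figure D3:**
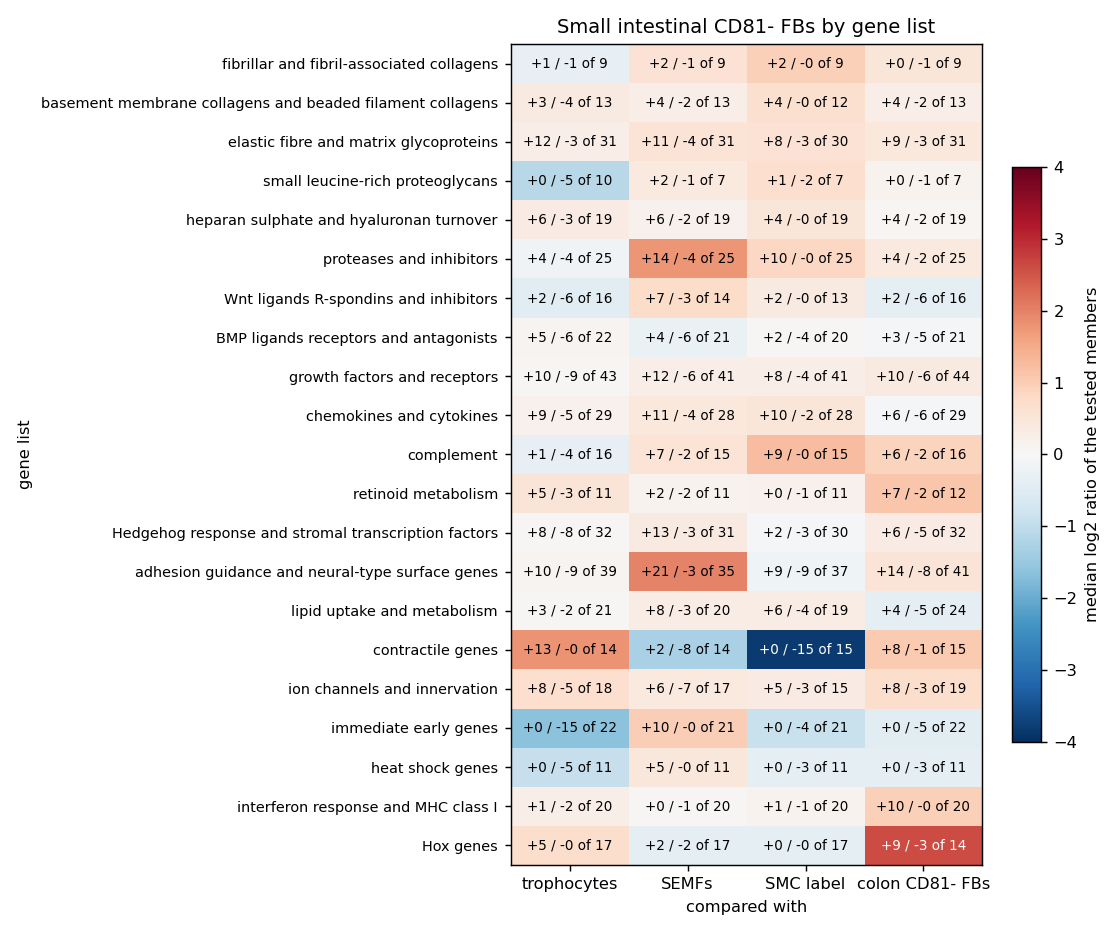
Median log2 ratio (colour) of small intestinal CD81- FBs over trophocytes, SEMFs, the SMC label and colon CD81- FBs for 21 gene lists; the numbers in a field give list members higher and lower beyond 2-fold of those tested. Contractile genes run from a median of 1.80 over trophocytes to -3.81 over the SMC label, and immediate early genes from -1.65 over trophocytes to 0.97 over SEMFs.

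Against endothelium the fibrillar collagens were higher. Over LECs 2118 of 11746 genes (18%) were higher and 1575 (13.4%) lower, and all 9 fibrillar and fibril-associated collagens tested were higher (median 4.62). Col1a1, a chain of collagen I, was at 2788 CPM against 89.7, and Col3a1 at 4658 against 124. Over BECs 2489 of 11110 genes (22.4%) were higher and 1383 (12.4%) lower, with 0 of 22 immediate early genes higher and 20 lower (median -2.20).

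Matrix genes of the CD81- FBs did not follow 1 order among the types. Col1a1 was at 2788 CPM, below the 5149 of trophocytes and above the 1431 of SEMFs and the 1443 of the SMC label. Fn1, fibronectin, was highest in CD81- FBs of the 6 types, at 1259 CPM against 916 in SEMFs. Eln, elastin, was at 747 CPM against 598 in trophocytes and 85.9 in SEMFs. Col14a1, which binds collagen fibrils, was at 883 CPM against 2067 in trophocytes and 67.3 in SEMFs. Col12a1 of the same kind was at 150 CPM against 823 in SEMFs and 32.6 in trophocytes. For genes that act on heparan sulphate and hyaluronan, Hpse was at 53.8 CPM against 30.3 in the SMC label and 5.79 in trophocytes, and Has1, a hyaluronan synthase, at 112 against 284 in trophocytes and 1.23 in SEMFs.

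Among genes for signals and their receptors, the CD81- FBs carried the receptor Fgfr2 at 561 CPM (333 in the SMC label, 133 in SEMFs, 97.2 in trophocytes). They carried Hgf, hepatocyte growth factor, at 131 CPM (73.4 in the SMC label, 97.8 in SEMFs, 30.3 in trophocytes) and Kitl, the ligand of Kit, at 210 CPM (149, 165 and 32.0). Nrg1, a ligand of ERBB receptors, was at 65.6 CPM, below the 108 of the SMC label, near the 66.4 of SEMFs and far above the 2.40 of trophocytes. Ccl11, the eosinophil chemokine eotaxin, was at 1115 CPM, below the 2244 of the SMC label and 1510 of SEMFs and above the 260 of trophocytes. Il33, an alarm cytokine, was at 239 CPM against 422 in the SMC label, 267 in trophocytes and 34.2 in SEMFs, and Il6 at 24.6 against 32.1, 186 and 0.613. Rdh10, a retinol dehydrogenase, was at 184 CPM against 134 in the SMC label, 316 in SEMFs and 21.8 in trophocytes, and Lrat, which stores retinol as esters, at 239 against 163, 129 and 64.8.

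The same label in the colon held 3631 cells with a median of 6697 UMIs, and the matrix markers Hmcn1 and Hpse2 were far lower in it. With 1 library per tissue, digested for different times, and with Xist UMIs in part of the colon cells, tissue, animal and preparation cannot be told apart. Of 12194 genes, 1263 (10.4%) were higher in the small intestine and 788 (6.46%) lower beyond 2-fold, with a median log2 ratio of 0.22. Relative to that median 769 were higher and 1031 lower, so the split turned. Hmcn1 was at 909 CPM in the small intestine and 6.84 in the colon (log2 ratio 7.05, 6.84 to 7.28), and Hpse2 at 3554 and 86.5 (5.36, 5.30 to 5.42). Both were also lower in other colon types: Hmcn1 was at 171 CPM in SEMFs of the small intestine and 8.47 in those of the colon and at 65.5 and 6.75 in trophocytes. Hpse2 was at 3693 and 340 CPM in SEMFs, 316 and 51.7 in trophocytes and 3278 and 10.4 in the SMC label. Adamdec1 at 8191 and 5608 CPM and Fbln1 at 1856 and 2237 were within 2-fold, and Edil3 was lower in the small intestine, at 268 against 559 CPM. Thus 2 of the 5 given markers marked the small intestinal library and the other 3 were abundant in both.

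The other genes of the 12 highest in the small intestinal CD81- FBs were of mixed function. Lrat was at 239 CPM against 3.56 (6.07), Dkk2, a Wnt inhibitor, at 198 against 4.65 (5.41), and Chrm3, a muscarinic acetylcholine receptor, at 156 against 1.66 (6.56). Angptl1, an angiopoietin-like protein, was at 137 CPM against 0.121, which is 3 UMIs in the colon (10.14, 8.59 to 12.42). Mmp10 was at 261 against 5.22 (5.64), and Rgs5, a regulator of G protein signalling known from pericytes, at 778 against 32.6 (4.58). Limch1 (5.36), Adgrl2 (5.27), Sntg1 (5.19) and Efna5 (3.83) were the remaining ones of the 12 highest. Against only the colon cells that had Y-linked UMIs and lacked Xist, Lrat (7.55), Chrm3 (8.26), Mmp10 (5.02), Rgs5 (3.98) and Angptl1 (9.07) and, on the low side, Cdh13 (-7.31) moved by over 1.5 times in ratio and kept their direction.

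Low in the small intestine were Postn, the matrix protein periostin, at 123 CPM against 1666 (-3.76), and Id1, a target gene of BMP signalling, at 6.55 against 174 (-4.73). Frmpd4 (-7.36), Cdh13 (-6.59) and Adam23 (-6.36) were at 1.64, 1.59 and 3.37 CPM against 270, 152 and 277. Stmn2, known from neurons, had 1 UMI in the small intestinal cells and 182 CPM in the colon (-11.84, -17.14 to -9.36). Gm42418, which overlaps ribosomal RNA sequence in the mouse genome, was at 2203 CPM against 86618 (-5.30). AY036118 (-3.62), Cdk8 (-5.52), Cmss1 (-5.33) and Lars2 (-4.89) were low with it. Gm42418 was low in every small intestinal type, between 1263 and 3695 CPM there and between 77002 and 102540 in the colon types, and the part of ribosomal RNA in these genes was not tested. Since CPM is a share of all UMIs, 86618 CPM of Gm42418 lowers the levels of the other genes in the colon cells. The part of this in the ratios and list medians against the colon was not tested.

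By list against the colon, 9 of 14 Hox genes, which record position along the gut, were higher and 3 lower (median 2.62, and 3.53 against the colon cells whose only sex-linked UMIs were Y-linked). Hoxb2 was at 36.6 CPM against 0.971, Hoxb3 at 38.8 against 0.729 and Hoxb4 at 36.8 against 2.31, while Hoxa9 was at 0.695 against 27.1. Hoxd10 had no UMI in the small intestine and 8.62 CPM in the colon, so its log2 ratio was at most -5.86. Of the interferon response and MHC class I list 10 of 20 were higher and 0 lower (median 0.96), among them H2-K1 at 2683 CPM against 982. Retinoid genes had 7 of 12 higher and 2 lower (median 1.11), and contractile genes 8 of 15 higher and 1 lower (median 1.05, and 1.71 against those same colon cells), with Acta2 at 341 CPM against 66.8. The Wnt list had 2 of 16 higher and 6 lower (median -0.38), with Wnt4 at 34.1 CPM against 208. Adhesion genes had 14 of 41 higher and 8 lower (median 0.51). Cxcl13, the chemokine that draws B cells, was at 106 against 788 CPM, and Igfbp3, a binding protein of insulin-like growth factors, at 379 against 1749.

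**Figure D4:**
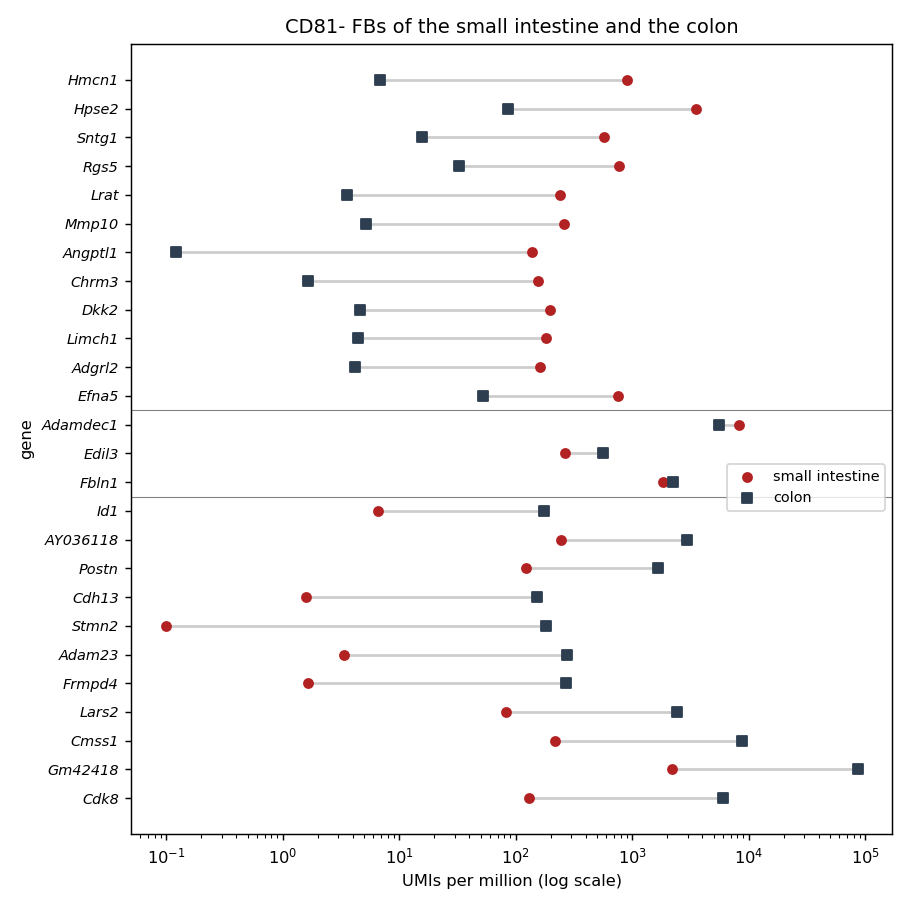
Levels in CD81- FBs of the small intestine (circles) and the colon (squares), in CPM on a log axis, for the 12 genes highest and the 11 lowest in the small intestine and, between them, 3 of the given markers. Hmcn1 (909 against 6.84 CPM) and Hpse2 (3554 against 86.5 CPM) separate the tissues, and Adamdec1, Edil3 and Fbln1 do not by far; Stmn2 in the small intestine, at 1 UMI, is drawn at 0.1.

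Among themselves the CD81- FBs varied most, by list, in immediate early and Wnt genes, followed by contractile genes and chemokines and cytokines, and least in collagens. Single chemokine genes led the ranking of genes. Variation was measured as the biological coefficient of variation (CV), the spread of thinned counts beyond counting noise relative to the mean, over 2696 cells. Its median was 0.521 over 5052 genes with a mean of at least 0.1 UMI, and 90% of genes lay under 1.07. Among genes with a UMI in at least 5% of the cells, Cxcl10, an interferon-induced chemokine, led with a CV of 6.16: it was seen in 7.38% of the cells, and the 5% of cells with the most held 90.3% of its UMIs. The chemokines Cxcl9 (9.53) and Ccl2 (8.38) had a higher CV but were seen in 3.04% and 3.93% of the cells, under that limit. Mmp3 (5.63), Cxcl5 (4.78), Nrg1 (4.76), Ifit3 (4.54), Cxcl13 (4.12), Chka (4.10), Hspb1 (3.99), Cxcl1 (3.98), Frmd5 (3.73) and Ebf1 (3.69) followed. Inpp4b (3.37), Cacnb2 (3.25) and Scara5 (3.22) came after them. By list the median CV was 1.41 for immediate early genes, 1.37 for the Wnt list, 1.11 for contractile genes, 1.10 for chemokines and cytokines, 0.917 for heat shock genes, 0.894 for growth factors and receptors, 0.732 for the interferon and MHC class I list and 0.467 for fibrillar collagens. The Wnt median rests on 8 genes, with means from 0.103 thinned UMI (Wnt4) to 4.60 (Sfrp1). Means of the fibrillar collagens ran from 0.245 (Col5a3) to 14.0 (Col3a1). The part of the mean level in the order of the lists was not tested.

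Cxcl10 and Ifit3, an interferon-induced protein that binds viral RNA, are shown with their promoters. They were among the 5 most variable genes with a UMI in at least 5% of the cells. The promoters of Mmp3, Cxcl5 and Nrg1, the others of the 5, are not shown. The genes nearest to Cxcl10 across cells were Ifit3 (Pearson r = 0.20 on log thinned counts), Nfkbia (0.19) and Icam1 (0.19), with nearly equal values. Those nearest to Ifit3 were Rnf213 (0.23) and Rtp4 (0.23), both also known as interferon-induced. The Cxcl10 promoter (chr5:92348890-92349139, minus strand) held the interferon letters on the other strand, 213 to 204 bases before the start, and the AP-1 letters at 74 to 68. The Ifit3 promoter (chr19:34583279-34583528, plus strand) held the interferon letters at 156 to 147 and at 122 to 113.
Cxcl10: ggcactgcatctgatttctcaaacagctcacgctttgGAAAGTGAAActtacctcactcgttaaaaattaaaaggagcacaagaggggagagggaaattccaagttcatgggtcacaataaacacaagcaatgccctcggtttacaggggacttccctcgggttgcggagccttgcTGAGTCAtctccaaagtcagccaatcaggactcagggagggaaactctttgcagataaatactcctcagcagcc
Ifit3: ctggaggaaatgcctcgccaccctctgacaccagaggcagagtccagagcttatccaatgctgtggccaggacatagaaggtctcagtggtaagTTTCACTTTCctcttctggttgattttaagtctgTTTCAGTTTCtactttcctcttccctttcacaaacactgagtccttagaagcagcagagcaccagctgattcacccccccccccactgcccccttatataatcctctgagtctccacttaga

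The given markers did not vary as 1 block. Across the 2696 cells Hpse2 went with Hmcn1 (r = 0.41) and Adamdec1 (0.36), while Fbln1 ran against Hpse2 (-0.41), Adamdec1 (-0.36) and Hmcn1 (-0.33) and stood apart from Edil3 (-0.02). Over all pairs of genes the 99th percentile of r was 0.065. The genes with the highest r to Fbln1 were Dcn (0.66), Gsn (0.64) and C3 (0.57), and the lowest were Adgrl3 (-0.61) and Mmp10 (-0.47). For Adamdec1 the highest were Tnc (0.41) and Adgrl3 (0.39) and the lowest Ebf1 (-0.48), Slit3 (-0.43) and Scara5 (-0.41). Mmp10, added after its values were seen, went with Cxcl14 (0.43) and against Gsn (-0.47). The points are cells of 1 library that share free RNA, so these values describe it. Before thinning, the cells' total UMIs had an r of 0.27 with Hpse2 and of 0.18 with Hmcn1, and Hpse2 had an r of 0.43 with Malat1, a nuclear RNA; the part of depth and nuclear RNA in the Hpse2 values was not tested.

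Clustering of the CD81- FBs alone gave 7 sub-clusters, of which 5 held at least 50 cells. Their leading genes defined them and are a description, and no sub-cluster was named as a cell type. Membership was only partly stable: with other settings the adjusted Rand index with these sub-clusters was 0.372 to 0.482 over 5 alternatives. In the alternatives 83.6% to 99.2% of the cells of sub-cluster 5 and 63.5% to 95.8% of those of sub-cluster 3 stayed in 1 cluster. These shares do not count which other cells joined that cluster. They rise where sub-clusters merge, as at resolution 0.25 with 4 clusters, and do not show that a sub-cluster stays separate. For sub-clusters 1, 2 and 4 the lowest shares were 38.3%, 39.5% and 41.9%.

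Sub-cluster 5, with 391 cells (13.9%), stood farthest from trophocytes and held 3565 of the 5261 Mmp10 UMIs of the CD81- FBs. Of 10619 genes, 308 (2.9%) were higher and 502 (4.73%) lower beyond 2-fold than in the other CD81- FBs. Mmp10 was at 1231 CPM against 98.3, Nrg1 at 336 against 20.2, Wnt4, a Wnt ligand, at 164 against 12.4 and Cxcl14, a chemokine of epithelium and stroma, at 376 against 49.8. Agt, the precursor of angiotensin, was at 246 against 17.1 CPM. Fbln1 was at 235 CPM there and between 1276 and 2741 in the other 4. The contractile list summed to 4464 CPM there and to 1393 to 2169 in the others, and the trophocyte markers to 986 CPM against 2301 to 4890. The smooth muscle markers summed to 1926 CPM, and 1.53% of its cells had a high doublet score. Spearman's rho of sub-cluster 5 was highest with the SMC label (0.919), then 0.885 with SEMFs and 0.853 with trophocytes, whereas for sub-cluster 2 these were 0.930, 0.850 and 0.950.

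Sub-cluster 1, with 776 cells (27.5%), had few leading genes, 34 of 10619 higher (0.32%) and 166 lower (1.56%). They included Ncam2 (67.5 CPM against 18.2), Nav2 (227 against 77.7), Lama1 (189 against 81.5), Igfbp3 (612 against 287) and Edil3 (430 against 205). Adamdec1 was at 10282 CPM in it and 11311 in sub-cluster 5, the highest of the 5 sub-clusters. Sub-cluster 3, with 452 cells (16.0%), had 111 genes higher (1.05%) and 328 lower (3.09%), led by Fgf14 (59.7 CPM against 3.61), Nkain3 (228 against 44.3) and Kcnt2 (205 against 42.2). Slit2, a guidance ligand, was at 177 against 38.8 CPM and Bmpr1b, a BMP receptor, at 109 against 22.1. Of the 5, sub-cluster 3 had the highest levels of the trophocyte markers Rspo3 (149 CPM) and Grem1 (309 CPM). Its sum over all 9 trophocyte markers, 3852 CPM, was below that of sub-cluster 4 (4890) and sub-cluster 2 (4551). Adamdec1 was lowest in sub-cluster 3, at 4642 CPM.

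Sub-cluster 2, with 749 cells (26.5%), was set apart by early response genes. Of 10619 genes, 200 were higher (1.88%) and 234 lower (2.2%), with Fosb at 1003 CPM against 166, Fos at 2592 against 650, Atf3 at 441 against 97.9 and Has1 at 302 against 31.2. The immediate early list summed to 15636 CPM in it and to 3473 to 7751 in the other 4, and heat shock genes to 7069 CPM. It was the deepest, with a median of 7872 UMIs, and 13.5% of its cells had a high doublet score; the part of depth, doublets and handling in these genes was not tested. Sub-cluster 4, with 394 cells (14.0%), was the shallowest (median 5350.5 UMIs) and had 65 genes higher (0.612%) and 518 lower (4.88%). It was led by Ebf1, a transcription factor, at 437 CPM against 98.6, and by Scara5 (127 against 27.1), Pi16 (72.2 against 12.9), Ifit3 (116 against 27.3), Ly6c1 (184 against 54.3), Pcolce2 (177 against 58.4) and Mfap5 (855 against 323). Ebf1 was seen in 20.1% of its cells against 16.1% of the others and Ifit3 in 12.7% against 11.2%, so a minority of its cells carried these levels. Ly6c1 has close paralogs, so its counts are uncertain. Sub-clusters 6 and 7 held 44 and 17 cells, and 75% of sub-cluster 6 had a high doublet score.

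**Figure D5:**
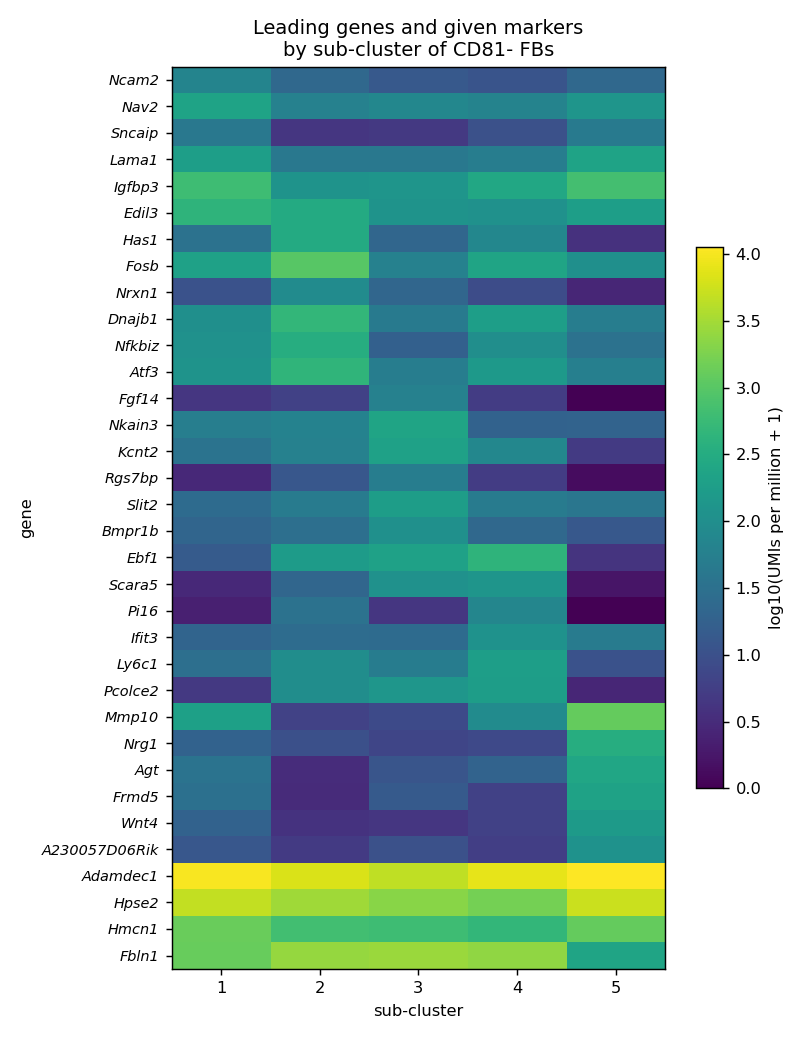
Levels of leading genes of the 5 described sub-clusters and of 4 given markers in each sub-cluster of the CD81- FBs, as log10 of CPM plus 1 (colour). Mmp10, Nrg1 and Wnt4 are bright in sub-cluster 5, where Fbln1 is darkest (235 CPM), and Fosb and Atf3 are brightest in sub-cluster 2; the genes were picked from these cells, so their contrast is a description.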

How the data were processed

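Droplet single-cell RNA sequencing measured UMI counts per gene and cell in 2 libraries, 1 from the small intestine and 1 from the colon. Per the submitters' processing notes, Cell Ranger 7.1.0, Seurat 4 and the mm10 build were used. The authors deposited, per gene and cell, whole-number counts, a natural log matrix (which matched the natural log of 1 plus the counts scaled to 10000 per cell) and a table of cell labels; how the labels were assigned is not given in the sources used here. Cells and labels were taken as the authors deposited them, with no further filter and no doublet removed.

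The members and gene lists were chosen with earlier results of these data known. UMIs were summed per type and divided by the type's total (CPM); with 1 library per tissue no test across samples was made. Intervals are exact at 95%: Poisson for levels, conditional binomial for ratios, Clopper-Pearson for shares, and cover counting error only; a count of 0 was set to 3. A gene was tested with at least 100 UMIs over both sides and called beyond 2-fold. Named genes had a UMI in at least 10% of the cells of the higher side and ranked highest or lowest by the ratio after adding 10 CPM: 15 highest and 8 lowest against all other cells, 10 highest against the highest other type, 8 each way against trophocytes, SEMFs and the SMC label, and 12 each way against the colon. With the 5 given markers they were 91 genes; mitochondrial, ribosomal protein, haemoglobin, immunoglobulin and sex-linked marker genes were left out. The 15 most variable genes, up to 8 leading genes of each sub-cluster and, from the lists, members with at least 20 CPM or a ratio beyond 2-fold were named as well. A few genes that met these rules are not reported here. Cells were thinned to 3000 UMIs for shares of cells, per-cell sums, correlations and the CV. Sub-clusters came from Leiden clustering (2000 variable genes, 30 principal components, 15 neighbours, resolution 0.5). Doublet scores came from Scrublet, as run in scanpy, which called 0.908% of the small intestinal and 0.0166% of the colon cells; since it called so few in the colon, the 6% of cells with the highest score were left out as an alternative. The scripts were tested on simulated data. Python 3.11.15, numpy 2.4.6, scipy 1.17.1, pandas 2.3.3, scanpy 1.11.5 and matplotlib 3.10.9 were used.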

Additional observations from a re-analysis of the deposited data

Results flagged for a closer look

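For 7 named genes the CD81- FBs stood on opposite sides of another fibroblast type in the 2 tissues, beyond 2-fold each way. With 1 library per tissue the difference between the tissues was not tested, and the share of such turns over all genes was not computed. Limch1, Mmp10, Dkk2, Frmpd4 and Postn had been named for their difference from the colon CD81- FBs. A turn is more likely for genes picked in that way. Over trophocytes, 3 of 77 named genes turned. Limch1, an actin-associated protein, had a log2 ratio of 1.82 in the small intestine and -3.30 in the colon. Frmpd4 had -3.42 and 4.07, and Postn, periostin, had -1.38 and 2.51. Over SEMFs, 4 of 75 named genes turned. Mmp10, stromelysin 2, had a log2 ratio of 2.23 in the small intestine and -2.77 in the colon, where it was at 35.6 CPM in SEMFs and 5.22 CPM in CD81- FBs. Piezo2, the mechanically gated channel, had 3.65 and -2.51, and Dkk2, a Wnt inhibitor, had 3.91 and -1.65. C7, a late complement protein, turned the other way, with -1.55 and 4.30.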

How the results depend on the processing

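Of 129 recomputed counts, shares and summary values under the alternatives, 87 stayed and 42 moved. Counts stayed when within 1.5 times, shares when within their interval and the median CV when equal at 2 digits. Of 1318 recomputed values of single genes and gene lists, 709 stayed, 607 moved and 2 changed sign. Here a gene's ratio moved when outside its counting interval and a list median when it differed at 2 decimals, so small shifts count as moved. With a filter of 20 UMIs the genes higher and lower were 937 and 2227 against all other cells, 1554 and 817 against trophocytes, 1578 and 1337 against SEMFs and 1005 and 755 against the SMC label; 3220 were higher against LECs and 1447 lower against the colon. With a filter of 500 UMIs they were 308 and 886, 389 and 298, 550 and 435, and 238 and 169, with 1190 higher against LECs, 1360 and 707 against BECs and 308 lower against the colon. With a 4-fold limit they were 109 and 842 against all others, 273 and 191 against trophocytes, 491 and 298 against SEMFs, 103 and 136 against the SMC label, 1315 and 862 against LECs, 1357 and 696 against BECs, and 233 and 290 against the colon. Fewer or more genes tested and a larger fold account for these by construction. Relative to the median gene 769 genes were higher than in the colon, and with cells thinned to 3000 UMIs 475 were lower. Among cells with at least 3000 UMIs the CD81- FBs made up 32.5%. There were 4 sub-clusters at resolution 0.25 and 14 at resolution 1.0, and the median CV at 2000 UMIs was 0.507. The 2 that changed sign were list medians: the Wnt list over SEMFs at -0.077 without the highest doublet scores, and over trophocytes at 0.033 with the 500 UMI filter; the cause was not tested. With 1 or 50 CPM added in place of 10, 10 of the 15 genes leading against all other cells remained in the ranking, and of the 8 lowest against trophocytes 2 remained with 1 CPM. No paired analysis was possible because each tissue has 1 library. Depth limits genes under 100 UMIs, and ratios that rest on few UMIs on 1 side, such as Stmn2 and Angptl1 in the colon comparison.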

Other observations

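RNA of defensins, antimicrobial peptides made by Paneth cells of the crypt, was found in the sorted CD81- FBs. The 9 listed Defa genes, near-identical copies whose reads may be split between them, summed to 97.1 CPM (1957 UMIs) in CD81- FBs, 51.4 CPM in SEMFs, 45.3 in the SMC label, 19.1 in LECs, 12.3 in BECs and 7.98 in trophocytes. A Defa UMI was seen in 8.15% of CD81- FBs, 5.12% of trophocytes and 11.9% of SEMFs, and the 5 listed epithelial markers summed to 2.13 CPM in CD81- FBs. Within the CD81- FBs the Defa sum was 227 CPM in sub-cluster 2 and 197 in sub-cluster 4, against 10.7 to 15.5 in sub-clusters 1, 3 and 5. The part of free RNA and doublets in these values was not tested.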
